A study of Mus musculus with 15 samples.

Results

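Control cells at day 14 were compared with the day 5 cells from which they had been grown, in order to see how miRNAs changed over the whole course without morphogens. The 6 arrays were taken from 15 in the series by their labels: 3 of cells at day 5 and 3 of control cells at day 14. All cells came from mouse epiblast stem cells (EpiSC), a pluripotent stem cell of the primed, post-implantation type, derived from Pitx3-GFP mice, which carry a fluorescent reporter of Pitx3, a transcription factor of midbrain dopaminergic neurons. They were differentiated for 14 days. Day 5 cells were harvested before any morphogen. From then on treated cells received SHH and FGF8, signals that pattern the ventral midbrain, while control cells grew on with neither of these. Control day 14 cells therefore differ from day 5 cells by 9 further days of culture and by no stated agent. Control cells at day 9 (3 arrays) and treated cells at day 14 (3 arrays) were used only to place the changes in time and between slides. Nothing in the labels says that the triplicates were separate cultures, so p-values measure the spread between these samples, which may be technical. The labels call control day 14 cells EpiSC, the same term as at day 5.

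Mature miRNAs are short RNAs, cut from 1 or both arms of a hairpin, that pair with messenger RNAs mainly through their seed, the bases 2 to 8 from the 5′ end, and lower their output. In primed pluripotent cells the miR-302 cluster with miR-367 is abundant and the related miR-290 cluster marks the naive state. The LIN28 proteins of such cells block the maturation of let-7 precursors, and mature let-7 accumulates when LIN28 is lost during differentiation. miR-124, miR-9, miR-137, miR-128 and miR-132 are enriched in the neural lineage, while the miR-17 cluster and its paralogs are most abundant in dividing cells.

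The mature sequences below belong to the miRNAs that the comparison turns on. They are from RefSeq, build GRCm38.p6, written 5′ to 3′ with the seed in capitals. Of the 306 miRNAs tested, 227 were matched by name. The first set holds 8 let-7 family members, all with the seed GAGGUAG. They lay above the day 5 values on every control day 14 array, as did 33% of all tested miRNAs.
let-7a-5p: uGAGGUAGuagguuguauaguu
let-7b-5p: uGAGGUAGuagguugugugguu
let-7c-5p: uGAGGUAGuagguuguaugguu
let-7d-5p: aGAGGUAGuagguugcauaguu
let-7e-5p: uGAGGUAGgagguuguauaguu
let-7f-5p: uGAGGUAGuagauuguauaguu
let-7g-5p: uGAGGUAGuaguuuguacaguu
let-7i-5p: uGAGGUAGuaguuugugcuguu
The second set is of miRNAs that fell. The seed AAGUGCU is common to miR-302b, miR-302d and miR-294, the seed AUUGCAC to miR-367, miR-363 and miR-92a, the seed AAAGUGC to miR-17 and miR-20b, and the seed AAGGUGC to miR-18a and miR-18b.
miR-302b-3p: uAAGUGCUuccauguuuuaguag
miR-302d-3p: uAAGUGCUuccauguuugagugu
miR-294-3p: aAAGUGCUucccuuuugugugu
miR-367-3p: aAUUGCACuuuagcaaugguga
miR-363-3p: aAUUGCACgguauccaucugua
miR-92a-3p: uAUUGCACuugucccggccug
miR-17-5p: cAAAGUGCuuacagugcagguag
miR-20b-5p: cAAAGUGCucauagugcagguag
miR-18a-5p: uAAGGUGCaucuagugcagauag
miR-18b-5p: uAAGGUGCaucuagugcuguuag
The third set holds miRNAs of the neural lineage and of the let-7 transcripts that rose. miR-99a and miR-100 share the seed ACCCGUA, miR-125a and miR-125b the seed CCCUGAG, and 4 miR-181 members the seed ACAUUCA.
miR-9-5p: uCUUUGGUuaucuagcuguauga
miR-9-3p: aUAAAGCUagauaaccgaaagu
miR-132-3p: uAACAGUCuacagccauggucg
miR-137-3p: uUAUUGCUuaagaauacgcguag
miR-99a-5p: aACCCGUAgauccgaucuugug
miR-100-5p: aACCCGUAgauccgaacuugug
miR-125a-5p: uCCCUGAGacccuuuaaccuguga
miR-125b-5p: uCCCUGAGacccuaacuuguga
miR-181a-5p: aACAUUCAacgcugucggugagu
miR-181b-5p: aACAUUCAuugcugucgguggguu
miR-181c-5p: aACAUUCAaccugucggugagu
miR-181d-5p: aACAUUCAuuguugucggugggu
Several of these lie together in the genome. In the RefSeq table miR-302b, miR-302c, miR-302d and miR-367 span chr3:127545275-127545800, the miR-17 to miR-92a cluster spans chr14:115043684-115044496, and the cluster from miR-18b to miR-363 spans chrX:52741697-52742403. The cluster of miR-99b, let-7e and miR-125a spans chr17:17830194-17830876, and let-7d, let-7f and let-7a span chr13:48536078-48538260.

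Signals are given as log2 scaled signal, where 0 is the array's 75th percentile over 353 probes above background on all 15 arrays, and -4.27 is the floor to which lower signals were raised. The scale fits comparisons of 1 miRNA between arrays, not of different miRNAs. On the 6 arrays the 75th percentile ran from 149.1 to 336.5 intensity units, between 237 and 290 mouse miRNAs of 1122 were above background, and 3.93% to 4.52% of spots were outliers. The number of arrays limits the precision. Replicates correlated at 0.980 to 0.987 at day 5 and 0.989 to 0.995 at day 14 (Pearson, across miRNAs, which are not independent replicates), and arrays of the different groups at 0.797 to 0.808. The day 5 arrays lay on slide 1 and the control day 14 arrays on slide 2, so slide and group cannot be told apart in this comparison. The labelling spike-in was 2.97 to 3.11 at day 5 and 2.77 to 2.86 at day 14 (log10), and the hybridisation spike-in was 4.42 to 4.43 and 4.16 to 4.24; their part in the results was not tested.

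The miRNA profile was widely different at the end of the course. Let-7 members, miR-125b, miR-9, miR-137 and miR-124 were higher in control day 14 cells, and the miR-302 cluster, miR-363, miR-18a and other products of the miR-17 cluster and its paralogs were lower. Of the 306 miRNAs tested, 210 (68.6%) passed an adjusted p of 0.05 (limma's moderated test, two-sided, Benjamini-Hochberg), with 105 higher (34.3%) and 105 lower (34.3%). An unadjusted p under 0.05 was reached by 217. The changes of 101 called miRNAs (33%) were over 2-fold, with 45 higher (14.7%) and 56 lower (18.3%). The 3 arrays of one group all lay above those of the other for 199 miRNAs (65%). The median change over all 306 was -0.02 on the log2 scale. Above background on all 6 arrays were 201 miRNAs. A further 22 were above background on all 3 control day 14 arrays and on 0 at day 5, and 14 the other way round. All of these were called, but miRNAs measured on only one side had to differ, so that count is no support. With so large a share called, a count of list members is read against these percentages. In bulk RNA, fewer cells of a type and less RNA per cell cannot be told apart.

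**Figure D1:**
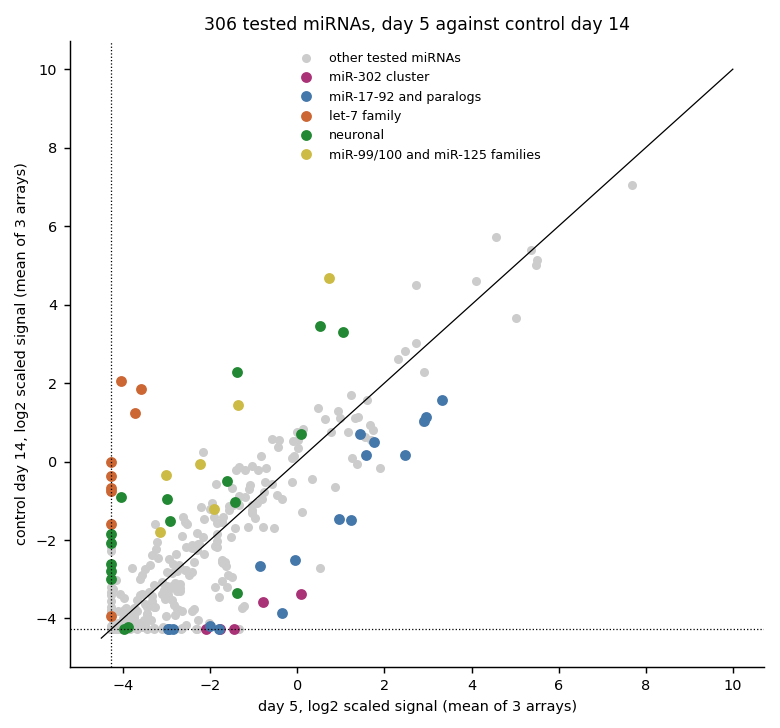
Mean log2 scaled signal of the 306 tested miRNAs at day 5 (x axis) and in control day 14 cells (y axis), each over 3 arrays, with 5 lists in colour, the line of equal signal, and dotted lines at the floor of -4.27. The let-7 family lies above the line, and the miR-302 cluster and the miR-17 cluster with its paralogs lie below it.

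The miR-302 cluster, the defining miRNAs of primed epiblast cells, fell. Of 10 members on the array 5 were tested and called lower (34.3% of all miRNAs were), but 3 of them were above background at day 5 and not at day 14, and so had to differ. The 2 above background on arrays of both groups were lower, as were 33.3% of the 249 such miRNAs. miR-302d-3p, a main product of the cluster, read 0.14, 0.37 and -0.23 at day 5 and -3.26, -3.41 and -3.43 at control day 14. The groups lay far apart, and miR-302d-3p fell 10.99-fold (log2 change -3.46, SE 0.16, adjusted p = 1.1e-10). miR-367-3p, from the same transcript but with another seed, read -0.66, -0.54 and -1.18 at day 5 and -3.47, -3.68 and -3.62 at day 14, 6.95-fold lower (adjusted p = 1.9e-09). Both were still above background on all 3 day 14 arrays. The other members had left the measurable range: miR-302a-3p read -1.31, -1.27 and -1.80 at day 5 and was not well above background on any day 14 array, at least 6.78-fold lower (adjusted p = 2.6e-11). Likewise miR-302c-3p was at least 5.45-fold (adjusted p = 6.2e-10) and miR-302b-3p at least 4.38-fold lower (adjusted p = 6.4e-12). Such bounds set the mean of the bright group against the lowest signal that counts as above background. The 5 other arms of the cluster were not above background on any of the 6 arrays.

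The miR-290 cluster, typical of naive embryonic stem cells, was near background already at day 5. Of its 14 members on the array 2 were tested, and both were lower (34.3% of all miRNAs were). Of these, miR-294-3p was above background at day 5 and not at day 14, and so had to differ. Only miR-290-5p was above background on arrays of both groups. miR-294-3p, which shares its seed with miR-302, read -3.16, -2.85 and -3.26 at day 5 and -4.27, -4.12 and -4.27 at day 14, where it was not well above background on any array, so it was at least 2.18-fold lower (adjusted p = 4.1e-08). miR-290-5p read -2.64, -2.92 and -2.34 at day 5 and -3.89, -3.70 and -3.87 at day 14, a change of -1.18 (adjusted p = 6.9e-06). miR-295-3p was above background on 2 arrays, both of day 5, and was not tested. Day 5 cells thus carried the miR-302 markers of the label EpiSC on all 3 arrays, while the cells labelled EpiSC at control day 14 carried only miR-302d-3p and miR-367-3p of them.

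The miR-17 cluster, which runs from miR-17 to miR-92a, and its paralogs, the miR-106a-363 and miR-106b-25 clusters, promote proliferation and survival. Of 27 members on the array 17 were tested and called lower, between -3.50 and -0.73. Of these, 4 were above background at day 5 and not at day 14, and the 13 above background on arrays of both groups were lower (33.3% of such miRNAs were). miR-363-3p, from the X-linked cluster, had the largest decrease of those measured in both groups: it read -0.38, -0.32 and -0.37 at day 5 and -3.91, -3.84 and -3.82 at day 14, 11.3-fold lower (log2 change -3.50, SE 0.075, adjusted p = 3.8e-14). Its day 14 values were above background but close to the floor. miR-18a-5p read 1.33, 1.45 and 0.95 at day 5 and -1.49, -1.57 and -1.45 at day 14, 6.70-fold lower (adjusted p = 2.5e-11). miR-18b-5p, its counterpart on the X chromosome with the same seed, read -1.68, -1.59 and -2.10 at day 5 and was not well above background at day 14, at least 5.39-fold lower (adjusted p = 1.1e-10). The arrays of the groups did not overlap for miR-18a-5p, as for 65% of all tested miRNAs. For miR-18b-5p this was fixed, with all day 14 arrays at the floor.

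Members with other seeds fell as well. miR-17-5p, which targets the cell-cycle inhibitor p21, read -0.049, 0.14 and -0.27 at day 5 and -2.65, -2.44 and -2.41 at day 14 (5.45-fold lower, adjusted p = 2.3e-10). miR-19a-3p read 1.04, 1.12 and 0.68 at day 5 and -1.57, -1.45 and -1.37 at day 14 (5.33-fold lower, adjusted p = 3e-10). miR-20b-5p went from 2.53, 2.65 and 2.23 to 0.13, 0.16 and 0.24, and miR-92a-3p from 3.05, 2.79 and 3.05 to 1.15, 1.16 and 1.11. The values of miR-92a-3p and miR-20b-5p at day 14 stayed well above the floor, with decreases of 3.54-fold and 4.91-fold. The passenger arm miR-18a-3p was at least 2.58-fold lower (adjusted p = 8.5e-08).

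By genomic cluster, over tested miRNAs matched to the sequence table, the 9 products of the chromosome 14 cluster had a median change of -1.82 and the 6 of the X-linked cluster one of -2.06. The 4 products of miR-106b-25, at chr5:138165332-138165807 within an intron of Mcm7, a replication gene, had a median of -1.34. miR-92a-3p and miR-19b-3p have a hairpin in both of the first clusters, and the array cannot tell their copies apart. By seed, the 5 matched miRNAs with AAAGUGC were called lower, as were the 6 with AUUGCAC (34.3% of all miRNAs were). The latter include miR-367 and miR-363. The difference between clusters was not tested.

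The let-7 family, which represses Lin28, Hmga2 and other transcripts of early embryos, rose. Of 20 members on the array 9 were tested and called higher (34.3% of all miRNAs were), but 6 of them were above background at day 14 and not at day 5, and so had to differ. The 3 above background on arrays of both groups were higher, as were 33.3% of the 249 such miRNAs. let-7c-5p read -3.88, -4.07 and -4.21 at day 5, where it was above background on 1 array, and 1.93, 2.10 and 2.16 at day 14. let-7a-5p read -3.44, -3.36 and -3.94 at day 5, above background on 2 arrays, and 1.66, 1.91 and 1.99 at day 14. let-7f-5p read -3.66, -3.55 and -3.94 at day 5, also above background on 2 arrays, and 1.10, 1.27 and 1.37 at day 14. All 3 rose from close to the floor to above the 75th percentile of the common probes. The changes were 6.12 (SE 0.11, adjusted p = 9.4e-15), 5.43 (adjusted p = 4.6e-13) and 4.97 (adjusted p = 3.8e-14), the 3 largest among miRNAs above background on at least 1 array of each group.

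Another 6 family members were not well above background on any day 5 array and above it on all 3 at day 14. let-7g-5p read -0.11, 0.054 and 0.035 at day 14, at least 14.9-fold higher (adjusted p = 9.4e-15). let-7b-5p read -0.51, -0.32 and -0.26, at least 11.7-fold higher (adjusted p = 8.9e-13), and let-7i-5p -0.75, -0.65 and -0.66, at least 9.35-fold higher (adjusted p = 4e-13). let-7e-5p was at least 8.96-fold (adjusted p = 1.3e-11) and let-7d-5p at least 4.96-fold higher (adjusted p = 3.2e-12). These 5 stood clear of the floor on all 3 arrays. The member with the smallest change, miR-98-5p, was singled out after its values were seen: it read -4.01, -3.76 and -4.07 at day 14, just above the floor, with a change of 0.32 (adjusted p = 0.0035) and no usable bound. The products of the chromosome 13 cluster, let-7d, let-7f and let-7a, all rose, though the array cannot tell copies of let-7a and let-7f from other loci apart.

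The miR-99/100 and miR-125 families lie in shared transcripts with let-7 genes and are, like let-7, linked to the end of the pluripotent state. All 6 members tested, of 11 on the array, were higher (34.3% of all miRNAs were), with a median change of 2.42. miR-125b-5p, which is abundant in neural cells, read 0.61, 0.60 and 0.97 at day 5 and 4.53, 4.76 and 4.73 at day 14, 15.4-fold higher (log2 change 3.94, SE 0.10, adjusted p = 4.6e-13). miR-99a-5p read -1.42, -1.31 and -1.36 at day 5 and 1.36, 1.48 and 1.48 at day 14, 6.97-fold higher (adjusted p = 3.8e-14). The replicates lay close together in both groups. miR-125a-5p rose from -3.07, -3.15 and -2.81 to -0.54, -0.25 and -0.28, 6.30-fold, and miR-100-5p from -2.32, -2.27 and -2.12 to -0.16, 0 and 0.0062, 4.55-fold. In the chromosome 17 cluster the tested and matched products were miR-99b-5p, let-7e-5p and both arms of miR-125a, and these 4 were all higher, with changes from 0.69 to 3.52.

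**Figure D2:**
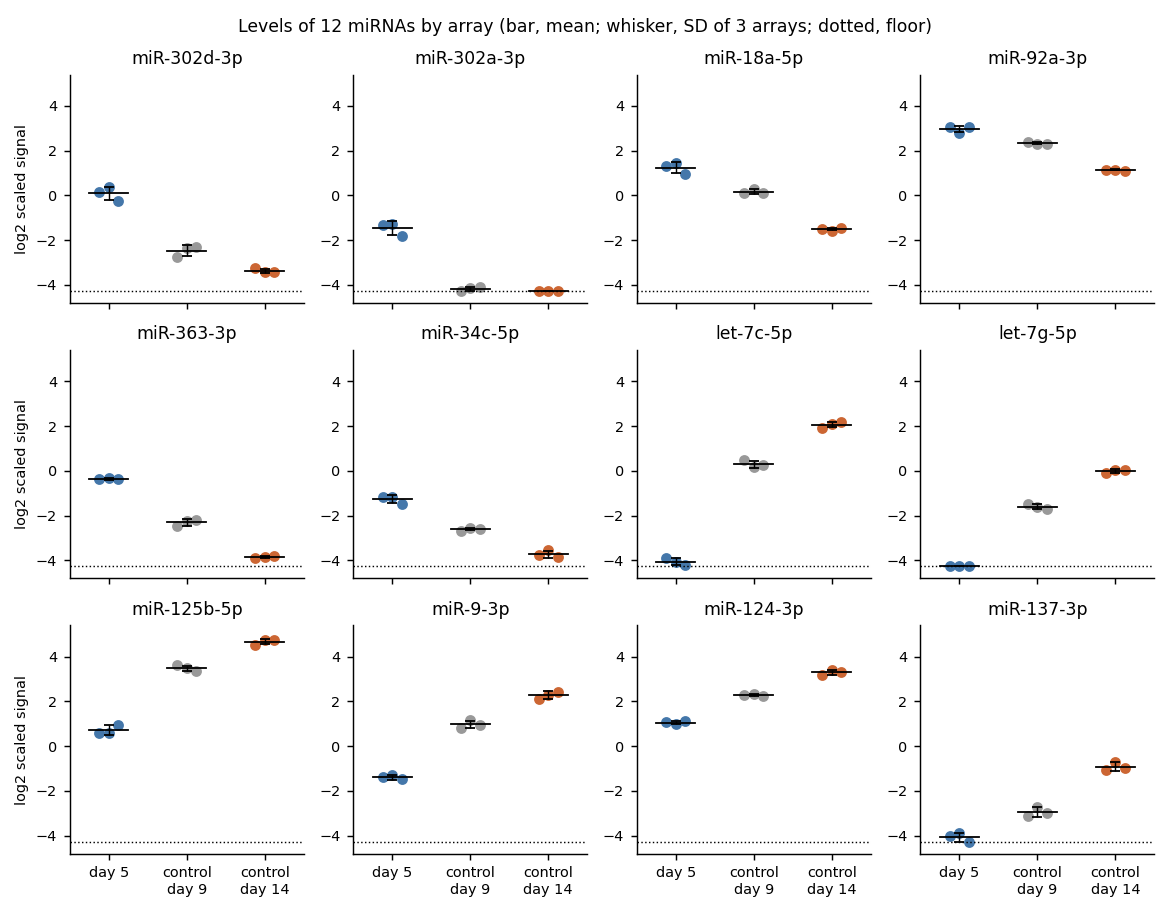
Log2 scaled signal of 12 miRNAs on each array of day 5, control day 9 and control day 14 cells (points, 3 arrays a group; bars, mean; whiskers, SD; dotted line, floor at -4.27). The members of the miR-302 cluster, miR-18a, miR-92a, miR-363 and miR-34c fall across the groups, while let-7, miR-125b, miR-9, miR-124 and miR-137 rise, with control day 9 in between on the group means.

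Of the 29 miRNAs in the list of neuronal miRNAs, 17 were tested, 14 were higher and 3 lower. Of the 11 above background on arrays of both groups, 9 were higher and 2 lower (33.3% of such miRNAs in each direction), while 5 were above background at day 14 and not at day 5. miR-9, which acts in neural progenitors and their exit to neurons, rose on both arms of its hairpin. miR-9-3p read -1.39, -1.28 and -1.48 at day 5 and 2.12, 2.30 and 2.44 at day 14, 12.7-fold higher (log2 change 3.67, SE 0.13, adjusted p = 7.6e-12). miR-9-5p read 0.67, 0.53 and 0.36 at day 5 and 3.30, 3.60 and 3.45 at day 14, 7.61-fold higher (adjusted p = 9e-12). The miR-9 hairpin has 3 copies in the genome, which give the same mature sequence.

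miR-124-3p, the best-known neuronal miRNA, represses non-neuronal transcripts such as Ptbp1. It was above background on all day 5 arrays and read 1.07, 0.97 and 1.11 there and 3.19, 3.40 and 3.30 at day 14, 4.75-fold higher (log2 change 2.25, SE 0.069, adjusted p = 2.1e-12). miR-137-3p, which acts in neuronal maturation, read -4.03, -3.87 and -4.27 at day 5, above background on 1 array, and -1.08, -0.69 and -0.99 at day 14 (log2 change 3.14, adjusted p = 5.3e-11). miR-128-3p rose 2.64-fold from -2.76, -2.94 and -3.04 to -1.64, -1.48 and -1.42. For these 3 the groups did not overlap, as for 65% of all tested miRNAs. miR-7a-5p, of neurons and endocrine cells, rose 2.16-fold (adjusted p = 1.9e-06) from -1.34, -1.70 and -1.78 to -0.69, -0.38 and -0.41. miR-218-5p, best known from motor neurons, rose only 1.30-fold (adjusted p = 0.0047) from -1.17, -1.56 and -1.54 to -1.13, -0.97 and -1.02. Its lowest day 14 value was only just above its highest day 5 value, and it was not called with the median of common probes or normexp (adjusted p = 0.072 and 0.13), nor with the slide block and the percentile over all probes together (adjusted p = 0.066).

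miR-132-3p and miR-212-3p come from neighbouring hairpins that are transcribed together and respond to CREB, and they moved in opposite directions here. miR-132-3p was not well above background on any day 5 array and read -2.25, -1.97 and -2.03 at day 14, at least 3.55-fold higher (adjusted p = 8e-10). miR-212-3p, singled out after its values were seen, read -1.08, -1.23 and -1.88 at day 5 and -3.60, -3.17 and -3.26 at day 14, 3.86-fold lower (adjusted p = 1.2e-05). Its treated day 14 arrays read -1.78 and -1.73 on slide 1 and -2.85 on slide 2. This was the only tested miRNA with over 1 log2 between the slides in that group, and with slide as a block its change shrank to -0.86 (adjusted p = 0.037). miR-129-1-3p, from one of the pair of miR-129 hairpins, was at least 4.16-fold higher (adjusted p = 9e-12). Of the other 2 lower members, miR-124-5p changed by -0.32 and was above background on 2 day 5 arrays and 1 day 14 array, and miR-7a-2-3p was below background on all 6; both were likewise named after their values were seen. With slide as a block 14 members were higher and 1, miR-212-3p, was lower.

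The 4 tested members of the miR-181 family, which is abundant in brain and lymphoid cells, were all higher (34.3% of all miRNAs were). Their median change was 1.35, but the amounts were unequal. miR-181a-5p read -2.21, -2.29 and -2.02 at day 5 and 0.21, 0.27 and 0.28 at day 14, 5.37-fold higher (adjusted p = 4.3e-12). miR-181b-5p read -1.46, -1.54 and -1.52 and -0.71, -0.66 and -0.62, only 1.79-fold higher (adjusted p = 5.6e-08), although both have hairpins next to each other on chromosomes 1 and 2. miR-181c-5p and miR-181d-5p, a pair on chromosome 8, rose 3.15-fold and 2.06-fold. The differences between members were not tested.

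In the miR-135 family, 3 of 4 tested members were higher and 1 lower (34.3% of all miRNAs in each direction). miR-135a-5p, made by hairpins on chromosomes 9 and 10, read -1.33, -1.20 and -1.70 at day 5 and -0.36, -0.13 and -0.18 at day 14, 2.27-fold higher (adjusted p = 8.4e-06). miR-135a-1-3p, the opposite arm of the chromosome 9 hairpin, read -1.67, -1.63 and -1.19 and -2.94, -2.87 and -3.03, 2.73-fold lower (adjusted p = 8e-08). The opposite arm of the chromosome 10 hairpin, miR-135a-2-3p, read -3.80, -3.51 and -3.37 at day 14, with a change of 0.71 (adjusted p = 6.8e-05) that turned to -0.068 with normexp background correction. miR-135b-5p rose 1.75-fold.

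Other families were split or moved little. Of the miR-15/16 family, which restrains the cell cycle through cyclins and Bcl2, miR-15b-5p fell from 1.29, 1.21 and 1.64 to -0.17, -0.019 and -0.03 (2.73-fold, adjusted p = 7.3e-09), and miR-16-5p fell 1.69-fold (adjusted p = 2.3e-07). miR-322-5p, with the same seed AGCAGCA on the X chromosome, rose from -3.42, -3.18 and -3.54 to -2.65, -2.58 and -2.67 (1.68-fold, adjusted p = 7.3e-06), but by only 0.077 and without a call under normexp. miR-195-5p changed by 0.47 close to the floor, and by -0.14 under normexp. The family had 3 of 6 tested members higher and 2 lower, near the share of all miRNAs (34.3% in each direction).

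Of the miR-23/27/24 clusters, 3 of 5 tested members were higher and 1 lower (34.3% of all miRNAs in each direction). miR-23b-3p rose from -2.74, -2.66 and -2.37 to -1.69, -1.44 and -1.51 (2.06-fold, adjusted p = 3.4e-07), and miR-24-3p and miR-27b-3p rose 1.40-fold and 1.39-fold, neither of them called under normexp. miR-27a-3p, which differs from miR-27b-3p near the 3′ end and shares its seed, fell from -3.72, -3.44 and -3.55 to -4.22, -4.18 and -4.23 (1.56-fold, adjusted p = 5e-06). Probes for such near-identical sequences can cross-hybridise, which was not tested.

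The miR-29 family, which represses collagens and DNA methyltransferases, also divided. miR-29a-3p was not well above background at day 5 and read -3.23, -2.89 and -2.97 at day 14, at least 1.84-fold higher (adjusted p = 1.9e-08), but not called under normexp. miR-29b-3p changed by -0.43 (adjusted p = 0.0047). It was above background on 1 day 5 array and 0 day 14 arrays, and its change became 0.099 with slide as a block, so no direction is given. Of the tested 5p arms of the miR-30 family, miR-30a-5p, miR-30c-5p, miR-30d-5p and miR-30e-5p were higher, by 0.34, 0.22, 0.80 and 0.55 on the log2 scale, and miR-30b-5p was not called (0.21, adjusted p = 0.07).

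In the miR-130 and miR-301 family 5 of 6 tested members were lower (34.3% of all miRNAs were). With slide as a block 4 were lower (24.2% of all miRNAs). miR-130b-3p fell from 1.25, 1.15 and 1.35 to 0.0074, 0.18 and 0.097 (2.23-fold, adjusted p = 3.6e-09), and its opposite arm miR-130b-5p fell 3.06-fold. miR-301b-3p, from the neighbouring hairpin, fell 1.84-fold and miR-130a-3p 1.53-fold. Of the miR-148 and miR-152 family 2 of 3 were lower, miR-148a-3p by 1.45-fold and miR-152-3p by 1.34-fold (adjusted p = 0.0047 and 0.0082), and a slide block ended both calls (adjusted p = 0.4 and 0.24).

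**Figure D3:**
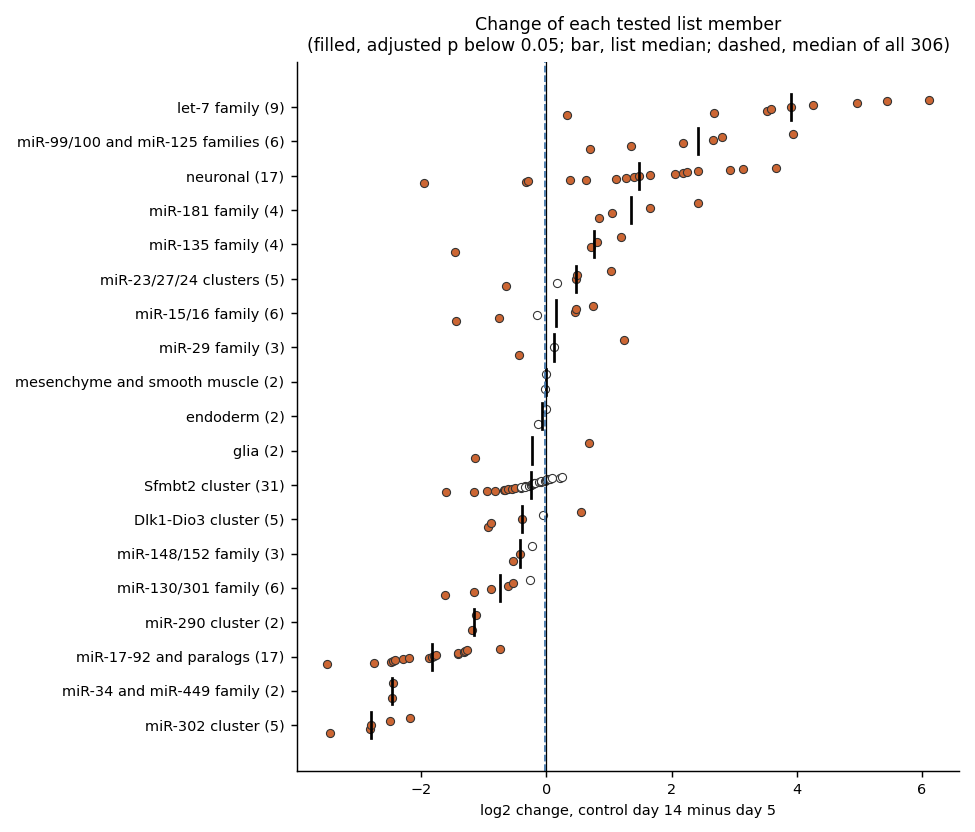
Log2 change (control day 14 minus day 5, x axis) of each tested member of the 19 lists with at least 2 tested members (number in brackets); filled points passed an adjusted p of 0.05, bars are list medians and the dashed line is the median of all 306 miRNAs, -0.02. The let-7 points reach 6.12 and the points of the miR-17 cluster and paralogs -3.50; lists near 0, such as miR-29, miR-15/16 and glia, have medians whose sign turns under some settings.

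Decreases were also large outside the pluripotency clusters. miR-34b-5p and miR-34c-5p, targets of p53 that come from 1 transcript, fell together: miR-34b-5p read -1.14, -1.05 and -1.50 at day 5 and -3.82, -3.68 and -3.56 at day 14, and miR-34c-5p read -1.17, -1.17 and -1.46 and -3.77, -3.54 and -3.86. The decreases were 5.50-fold and 5.49-fold (adjusted p = 1.9e-10 and 6.5e-11), and the other 9 members of the list with miR-449 on the array were not above background on any of the 6 arrays. miR-1949 read 0.42, 0.40 and 0.76 at day 5 and -2.55, -2.87 and -2.71 at day 14, 9.44-fold lower (adjusted p = 3.5e-12). miR-5117-3p read -1.52, -1.54 and -0.94 at day 5 and was not well above background at day 14, at least 7.39-fold lower (adjusted p = 1.4e-08). Its fitted change of -2.94 became -2.11 with slide as a block.

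miR-335, from an intron of the imprinted gene Mest, fell on both arms. miR-335-3p read -2.26, -2.20 and -2.54 at day 5 and was not well above background at day 14, at least 3.70-fold lower (adjusted p = 3.5e-11), and miR-335-5p, named after its values were seen, read 0.75, 1.07 and 0.77 and -0.75, -0.55 and -0.68. The change of miR-335-5p was -1.52 (adjusted p = 3.4e-07) and shrank to -0.91 with slide as a block. miR-139-3p, from an intron of Pde2a, was at least 2.93-fold lower (adjusted p = 3.5e-08). Among increases, miR-344b-3p was at the floor on all day 5 arrays, with 1 of them above background by the scanner's flag, and read -1.65, -1.50 and -1.51 at day 14. miR-598-3p was not well above background at day 5 and read -2.37, -1.99 and -2.15, at least 3.34-fold higher (adjusted p = 4.9e-11).

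Among large miRNA clusters, the imprinted Dlk1-Dio3 region had 6 of 99 members above background on any of the 6 arrays. Of these 5 were tested, 1 was higher and 3 were lower (34.3% of all miRNAs in each direction). miR-494-3p fell from 1.60, 1.63 and 1.99 to 0.85, 0.78 and 0.78 (1.92-fold, adjusted p = 7.8e-07). miR-370-3p fell 1.84-fold (adjusted p = 9.5e-05, and 0.089 with slide as a block). miR-770-3p had a change of 0.56 just above the floor that turned to -0.11 under normexp. miR-487b-3p had a change of -0.38 (adjusted p = 0.031), and was not called without any 1 of day 5 replicates 1 and 2 or of the 3 day 14 replicates (adjusted p from 0.053 to 0.15), nor with slide as a block (-0.14, adjusted p = 0.71). With that block 1 member of the region was lower, in place of 3. The Sfmbt2 cluster, a block of repeated hairpins in an intron of an imprinted gene, had 31 of 61 members tested, with 0 higher and 10 lower (against 34.3% for each direction), and a median of -0.24. With slide as a block 5 were lower (against 24.2% of all miRNAs). Its members are near-identical, so a probe can bind more than 1. miR-466b-3p fell from -2.64, -2.67 and -2.60 to -4.27, -4.27 and -4.19 and miR-669f-3p from -0.52, -0.73 and -0.37 to -1.82, -1.66 and -1.62. Of these, miR-466b-3p was above background on only 1 day 14 array, with the others at the floor, so its decrease is understated. The same holds for miR-467a-5p, which read -4.27, -4.27 and -4.21 at day 14 after -3.26, -3.32 and -3.32 at day 5. miR-669b-5p, above background on all 6 arrays, changed by -0.83 on the log2 scale (adjusted p = 0.00015).

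Markers of other cell types were mostly below background. Of the miR-200 family (epithelium, 10 members), the striated muscle list (15), the list of endothelium and blood (11) and the Hox-cluster miRNAs (11), 0 members were above background on any of the 6 arrays. The summed linear scaled signal of the striated muscle list was 0.0447 to 0.0791 at day 5 and 0.0367 to 0.0474 at day 14, and that of miR-200 at most 0.00603 in either group. Among 11 mesenchyme and smooth muscle miRNAs only miR-21-5p, which many cell types express, was above background (summed signal 0.494 to 0.729 at day 5 and 0.630 to 0.666 at day 14). It read -0.59, -0.57 and -1.10 at day 5 and -0.86, -0.75 and -0.72 at day 14, with no detectable change (-0.02, adjusted p = 0.92), but it was lower by 0.20 on the log2 scale (adjusted p = 0.032) without day 5 replicate 3. Of 17 endoderm miRNAs 2 were above background on 1 day 5 array each (summed signal 0.126 to 0.162 and 0.120 to 0.131); miR-375-3p, of endocrine cells, was below background on all 6. Of 6 miRNAs of the miR-183 cluster, typical of sensory cells, 1 was above background on 1 day 5 array. miR-133b-3p was above background on 0 of the 15 arrays.

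The 2 tested glial markers, both best known from oligodendrocytes, moved in opposite directions. miR-219-5p fell from 1.80, 1.69 and 1.56 to 0.59, 0.52 and 0.51 (2.21-fold, adjusted p = 2.6e-07). miR-338-3p rose from -3.45, -3.65 and -3.64, above background on 2 arrays, to -3.08, -2.75 and -2.88 (log2 change 0.67, adjusted p = 2.2e-05), but changed by only 0.021 and was not called under normexp. The summed signal of the 5 glial miRNAs was 3.10 to 3.63 at day 5 and 1.57 to 1.62 at day 14. This sum mostly follows miR-219-5p, which read far above miR-338-3p on every array, and is not a change of the list.

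Control day 9 cells, on slide 2 like those of day 14, divide the course into an early step between slides and a late step within a slide. The early and late comparisons share the day 9 arrays, and each shares arrays with the full course, so their values are only set side by side. From day 9 to day 14, 166 of 306 miRNAs were called (54.2%), with 96 higher (31.4%) and 70 lower (22.9%) and a median change of 0.06. From day 5 to day 9, 180 were called (58.8%), with 73 higher (23.9%) and 107 lower (35%) and a median of -0.09. Within slide 2, all 9 tested let-7 members, 14 of 17 neuronal miRNAs and 5 of 6 of the miR-99/100 and miR-125 families were higher at day 14, and 13 of 17 members of the miR-17 cluster and its paralogs were lower.

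Differences between the steps were not tested. miR-302d-3p read -2.77, -2.33 and -2.31 at day 9, with a change of -2.56 in the early and -0.90 in the late step (adjusted p = 6.6e-09 and 0.00025). All 5 members were lower in the early step and 2, miR-302d-3p and miR-367-3p, in the late one, while miR-302c-3p, above background on all 3 day 9 arrays, changed by -0.32 (adjusted p = 0.06) and miR-302b-3p was at the floor from day 9. let-7c-5p read 0.47, 0.18 and 0.24 at day 9 and rose in both steps, by 4.35 and 1.76. let-7b-5p, at -2.46, -2.81 and -2.75 on day 9, had a change of 2.31 in the late step and, starting from the floor, one of 1.60 in the early step.

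Several miRNAs were called in the late step, within a slide, but not in the early one. miR-15b-5p read 1.28, 1.26 and 1.13 at day 9, with changes of -0.15 (adjusted p = 0.21) and then -1.30 (adjusted p = 6e-08). miR-130b-3p read 1.14, 1.15 and 1.07, with -0.13 (adjusted p = 0.15) and then -1.03 (adjusted p = 3.2e-08). miR-135a-5p read -1.53, -1.31 and -1.64, with -0.085 (adjusted p = 0.7) and then 1.27 (adjusted p = 7.6e-06). In each of these the day 9 arrays lay near those of day 5. miR-7a-5p changed by -0.22 (adjusted p = 0.16) and then by 1.33 (adjusted p = 6e-07). miR-129-2-3p, of the neuronal list and named after its values were seen, changed by -0.094 (adjusted p = 0.65) and then by 2.15 (adjusted p = 2.8e-08). miR-132-3p was called in both steps, at 0.35 and 1.84. Its early change started at the floor and reached only -3.59, -4.04 and -4.13 at day 9. The lowest signals above background on day 5 replicates 1 and 3 were -3.76 and -3.70, so this early change was not resolved.

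Others turned. miR-322-5p fell by 0.31 on the log2 scale to day 9 (adjusted p = 0.013) and then rose by 1.06 (adjusted p = 4.1e-07). miR-181b-5p rose by 1.29 to -0.12, -0.22 and -0.29 at day 9 (adjusted p = 1.3e-09) and then fell by 0.45 (adjusted p = 5.9e-05), while miR-181a-5p rose in both steps, by 1.79 and 0.63. The whole change of miR-212-3p fell between the slides: -1.97 to day 9 and 0.018 after it.

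How a level reads on each slide could be seen only in treated day 14 cells, with 2 arrays on slide 1 and 1 on slide 2. Slide 2 minus slide 1 had a median of -0.08 over the 306 miRNAs, with a 5th to 95th percentile from -0.46 to 0.16. With slide as a fixed block, estimated from those arrays alone, 172 miRNAs were called (56.2%), 98 higher (32%) and 74 lower (24.2%). Of these, 166 were also called without the block, all in the same direction, while 44 were lost and 6 gained. The lists kept their counts for let-7 (9 of 9 higher), the miR-17 cluster with paralogs (17 of 17 lower), miR-302 (5 of 5 lower) and the miR-99/100 and miR-125 families (6 of 6 higher). Where all treated day 14 arrays lay at the floor, the block could not move the change. This held for miR-302a-3p, miR-302b-3p, miR-363-3p, miR-18b-5p, miR-18b-3p, miR-18a-3p and miR-20a-3p. Their unchanged values say nothing about the slide. miR-302d-3p changed by -3.07 with the block and miR-124-3p by 2.14. A slide term from 1 array against 2 is itself uncertain.

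**Figure D4:**
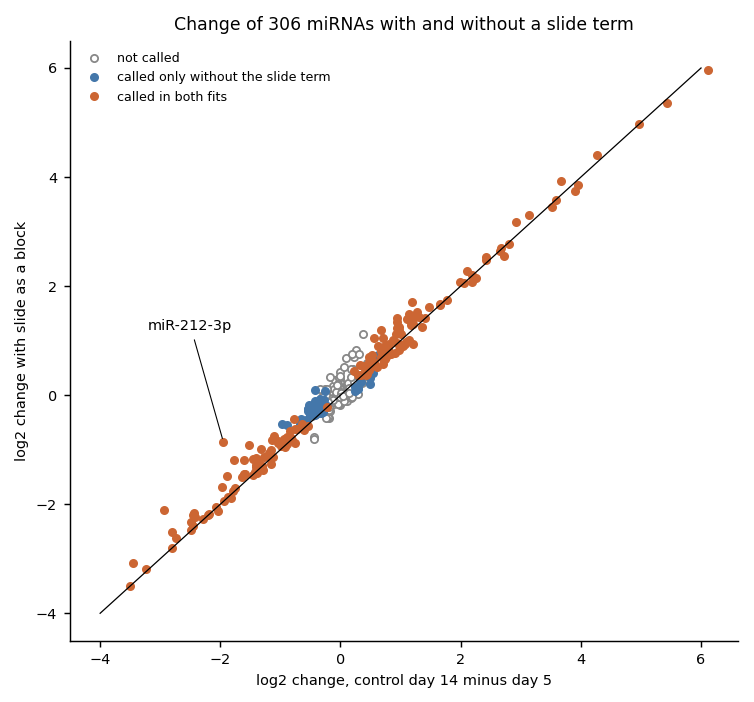
Log2 change of the 306 miRNAs (control day 14 minus day 5) without a slide term (x axis) and with slide as a fixed block (y axis), coloured by whether they were called, with the line of equal change. Points called in both fits (166) reach the ends of the line, the 44 called only without the block lie toward the centre, and miR-212-3p moves from -1.95 to -0.86.

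Both arms of a hairpin were tested for 35 hairpins, and both were called for 17. Since 68.6% of all tested miRNAs were called, this count is not read as a trait of hairpins. In 14 of the 17 the arms moved the same way, among them miR-9, miR-17, miR-18a, miR-20a, miR-125a, miR-130b and miR-335. In 3 hairpins they moved in opposite directions: miR-124, miR-149 and miR-3096b, all named after their values were seen except miR-124-3p. miR-149-5p fell from -1.83, -2.26 and -1.57 to -3.29, -3.07 and -3.23 (adjusted p = 7.7e-07), while miR-149-3p rose from -0.97, -1.06 and -0.65 to -0.21, -0.077 and -0.35 (adjusted p = 3.5e-05). miR-3096b-3p fell from 1.82, 1.78 and 2.08 to -0.033, -0.25 and -0.18 (adjusted p = 3.9e-11), while miR-3096b-5p rose from -0.071, -0.038 and -0.16 to 0.59, 0.50 and 0.48 (adjusted p = 1.1e-06). All 4 were above background on every one of the 6 arrays. With slide as a block both arms were called in 12 hairpins, and miR-149 and miR-3096b stayed opposite, while miR-124-5p was not called (adjusted p = 0.18).

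**Figure D5:**
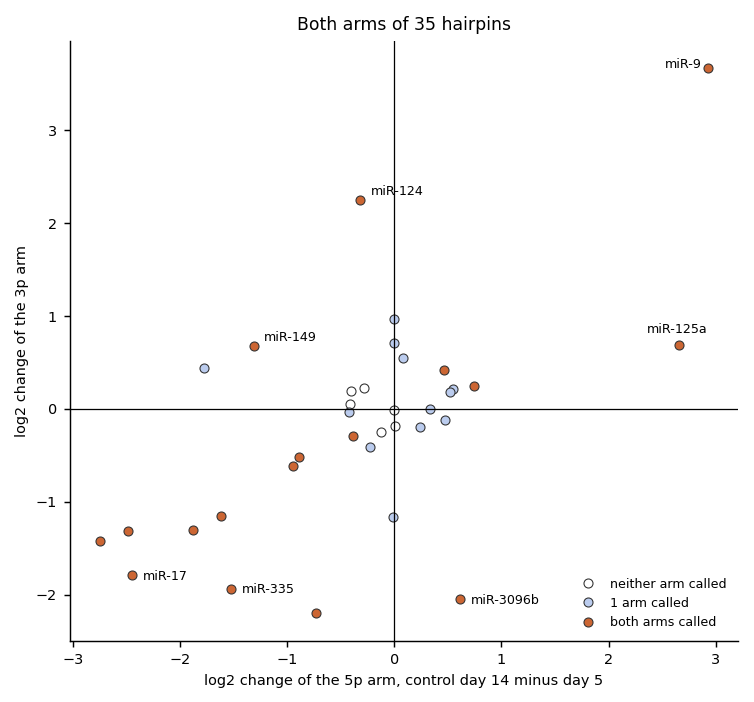
Log2 change (control day 14 minus day 5) of the 5p arm (x axis) and the 3p arm (y axis) of the 35 hairpins with both arms tested, filled by how many arms passed an adjusted p of 0.05. Of 17 hairpins with both arms called, 14 lie in the quadrants of equal direction and miR-124, miR-149 and miR-3096b in the others.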

How the data were processed

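RNA of 15 samples was read on single-colour (Cy3) Agilent mouse miRNA arrays, release 18, after labelling 10 ng. The deposited scanner tables hold spot intensity values, background-subtracted and not normalized between arrays, from Feature Extraction 11.0.1.1, per the file headers. Other columns used are flags (0 or 1) for spots above background, saturated (0 spots) or outlying, per the file headers. The deposited value table also holds linear intensity, and 73.3% to 83.8% of mouse probes in 14 columns equal the scanner mean within 0.1%. Its column medians run from -0.0215 to 0.700, with no log and no centring. Its column for treated day 14 replicate 2 repeats replicate 1 (86.0% equal), so both counted as 1. The submitters' processing notes name limma 3.20.9 with no role. The limit on array precision is the number of arrays.

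Here, spots that were no outliers were averaged per probe, scaled to the 75th percentile of common probes, floored and put on the log2 scale. The brightest probe stood for a miRNA. Of 1122 mouse miRNAs, 306 above background (at least 50% of spots) on all arrays of at least 1 of 5 groups were tested. One model of 5 groups was fitted in limma 3.58.1 (R 4.3.3, 10 residual and 3.06 prior degrees of freedom), adjusted by Benjamini-Hochberg over all 306, and tested on simulated data. The SE is limma's. Members, lists and rules were chosen with earlier results of these data known. Named were the 10 largest increases and decreases measured in both groups, up to 8 switched on or off, the called members of each list (4 at most), and 23 given miRNAs. Alternatives concerned scaling, background, floor, filter, probes, slide, replicate block, arrays in the fit, the value table, and leaving out each array. Figures were made in Python 3.11.15 (matplotlib 3.10.9, numpy 2.4.6, pandas 2.3.3).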

Additional observations from a re-analysis of the deposited data

Results flagged for a closer look

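The arrays also carry probes for 57 viral miRNAs, which mouse cells are not known to make and which no comparison used. Above background on all 6 arrays were 4 of them. Their means changed between day 5 and control day 14 by 0.28 for mcmv-miR-M23-1-5p, 0.93 for mcmv-miR-M87-1, -0.82 for mcmv-miR-m88-1 and -0.10 for mghv-miR-M1-2-3p on the log2 scale. The median change of these 4 was 0.09. Slide and group cannot be told apart in these values either.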

How the results depend on the processing

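Of 21 alternatives, 3 changed a count of all calls by over 1.5 times or the direction of a named miRNA. Normexp background correction (offset 50, on the median spot signal, since the tables used have no mean signal) gave 67 miRNAs higher instead of 105 and turned miR-135a-2-3p to -0.068, miR-195-5p to -0.14 and miR-770-3p to -0.11. A floor 4 times higher gave 57 lower instead of 105, left 21 named miRNAs, with all arrays at the floor, without a value, and ended the calls of miR-598-3p and miR-335-3p. Slide as a fixed block turned miR-29b-3p to 0.099. The split of calls moved by over 10 points from an even one only with normexp, to 39.2% higher, and was 58.3% with the percentile over all mouse probes, 43.9% with the median of common probes and 57.3% with quantile normalization. The median of all miRNAs was -0.12 with the median of common probes and -0.22 with normexp, so changes below that size depend on the scaling. Leaving out each array gave 101 to 112 higher and 98 to 111 lower. With the replicate block 105 were higher and 104 lower. Deviations of same-numbered arrays of the compared groups correlated at 0.099, 0.29 and -0.57. Of the 6 arrays 2 correlated best with their own number. No pairing by number was seen, but with 3 arrays a group these values cannot exclude it. Slide as a random block gave 105 and 103. Combined with the percentile over all probes, an alternative chosen after seeing the data, the fixed slide block gave 73 and 78. List medians over the settings ran from 1.59 to 4.94 for let-7, -2.20 to -1.19 for the miR-17 cluster and paralogs, -3.46 to -0.81 for miR-302, 0.42 to 2.05 for neuronal miRNAs and -0.45 to 0.36 for miR-15/16. Among the lists described, calls ran from 2 to 5 lower for miR-302, 0 to 2 lower for miR-290, 12 to 17 lower for the miR-17 cluster and paralogs, 8 to 14 higher for neuronal miRNAs, 0 to 3 higher for miR-15/16, 1 to 4 higher for miR-23/27/24, and 1 to 15 lower and 0 to 4 higher for the Sfmbt2 cluster. The calls of miR-148a-3p and miR-152-3p also ended with the percentile over all probes, quantile normalization, a fit of only the 6 arrays and the combined slide block, and that of miR-152-3p without the filter on dim miRNAs. Dim miRNAs near the floor limit what can be measured. The floor can understate their changes, but some small ones shrank or turned under normexp.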

Other observations

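The miRNAs given here were named after their values were seen. Several outside the lists were also measured on only one side. Those given with a bound below had to differ, so their adjusted p values are no support. Not well above background at day 5 and above it on all 3 control day 14 arrays were miR-101c (at least 3.08-fold higher, adjusted p = 1.2e-10), miR-326-3p (at least 1.65-fold, adjusted p = 2.4e-08), miR-551b-3p (at least 1.49-fold, adjusted p = 7.3e-10) and miR-488-3p (at least 1.42-fold, adjusted p = 6.3e-07). Of the neuronal list, miR-138-5p was at least 2.17-fold higher (adjusted p = 4e-09) and miR-7b-5p, a sister of miR-7a-5p, at least 1.88-fold higher (adjusted p = 4.4e-08). All 6 were also higher at day 14 than at day 9, within slide 2. In the other direction, miR-221-3p, which targets the cell-cycle inhibitor p27, was at least 2.15-fold lower (adjusted p = 2.5e-09) and was at the floor by day 9.

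miR-744-5p read -2.23, -2.24 and -1.63 at day 5 and -4.05, -4.03 and -4.23 at day 14, 4.20-fold lower (adjusted p = 8.6e-09), and kept a change of -2.05 with slide as a block. miR-877-5p, made from an intron without Drosha, read -2.17, -2.53 and -2.11 and -4.22, -3.69 and -4.23, 3.42-fold lower (adjusted p = 5.1e-07). Its change was -1.20 with slide as a block and 0.19 from day 9 to day 14 within slide 2 (adjusted p = 0.4). miR-2137 rose from 2.65, 2.54 and 2.96 to 4.62, 4.51 and 4.35, 3.42-fold (adjusted p = 7.8e-10), and by 1.15 of that on the log2 scale from day 9 to day 14. No explanation was tested for these values.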
